A study of Homo sapiens with 4 samples.

Results

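The numbered pseudogenes of HMGB1 and GAPDH were examined in 4 RNA-seq libraries of HaCaT cells, an established line of human epidermal keratinocytes. Members were all rows of the deposited gene tables named HMGB1P or GAPDHP followed by a number, which gave 70 of 44591 rows, 27 of HMGB1 and 43 of GAPDH. The cells were untreated, grown in Dulbecco's medium with 12% fetal bovine serum at 37 °C and 5% CO2 per the labels, and each library was made from 1 µg of total RNA. The study's methods give a lower serum percentage than the labels. The 4 libraries form 1 group with no comparison group, which the study calls biological repeats and the labels number without naming separate cultures. P-values measure only the spread between these libraries. HaCaT is a single spontaneously immortalised line, so the libraries carry no donor variation. All 8 keratinocyte markers examined had more than 3 counts in every library, at a summed level of 4807 to 12980 TPM (counts per kilobase of gene length, scaled to 1000000 per library), against 0.731 to 9.02 TPM for the summed markers of fibroblasts, melanocytes, immune cells and endothelial cells. Of those markers TYR, KDR and PECAM1 were at 0 in all 4 libraries.

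Processed pseudogenes are DNA copies of a spliced mRNA that was reverse transcribed and inserted elsewhere in the genome. They usually lack the introns and the promoter of the parent gene and gather substitutions over time, and some are transcribed from a neighbouring or acquired promoter. HMGB1 encodes an abundant chromatin protein that bends DNA and acts as an alarm signal outside the cell, and GAPDH encodes a glycolytic enzyme whose mRNA is a common reference in quantitative PCR. Both parents have many processed copies in the human genome. The study also knocked down HMGB1 by RNA interference and used GAPDH mRNA as its reference for PCR, with oligonucleotides whose sites are given below.

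The sequences show how close the copies are to the parents. The first set compares HMGB1 with HMGB1P5, the HMGB1 pseudogene with the highest mean count over the 4 libraries. It shows 2 of the 3 substitutions between the coding sequence of transcript HMGB1-203 and the HMGB1P5 model of GENCODE release 29 (GRCh38). Positions are counted from 1 at the first base of the HMGB1 coding sequence, the parent's base comes first in each substitution, and capitals mark the differing base.
HMGB1 at C293T: cacccaagaggcCtccttcggcctt
HMGB1P5 at C293T: cacccaagaggcTtccttcggcctt
HMGB1 at T465C: gaaggaaaaataTgaaaaggatatt
HMGB1P5 at T465C: gaaggaaaaataCgaaaaggatatt
HMGB1P5 also lacked 6 bases of the parent, aligned at coding positions 610 to 615. The difference T465C was present in 18 of the 24 HMGB1 pseudogene models that align there and C293T in 3 of 27. HMGB1P6 differed from the parent by 9 substitutions, T465C among them, with 2 bases missing and 1 extra. C293T thus separated HMGB1P5 from HMGB1P6 as well as from HMGB1, and it was shared with HMGB1P24 and HMGB1P37.

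The second set holds the sites of the study's HMGB1 and GAPDH oligonucleotides, shown for the members detected in every library where the site is informative and for a few close members. They are a selection, and the full numbers of exact matches follow with the results. Capitals mark mismatches, positions are counted from 1 at the 5′ end of the oligonucleotide with its base first, and reverse primers are written as the primer reads.
HMGB1 forward primer site in HMGB1, HMGB1P5 and HMGB1P6: cttcggccttcttcctcttctg
HMGB1 forward primer site in HMGB1P1 and HMGB1P10: cttcggccttcttcctGttctg
HMGB1 forward primer site in HMGB1P3: cttTggccttTttcctGttctg
HMGB1 reverse primer site in HMGB1, HMGB1P5, HMGB1P6 and HMGB1P10: aactcccttttttgctgcatcag
HMGB1 reverse primer site in HMGB1P1: aactcccttttttgctgcCtcag
HMGB1 siRNA 1 site in HMGB1, HMGB1P1, HMGB1P5, HMGB1P6, HMGB1P10 and 7 other members: ggagagatgtggaataaca
HMGB1 siRNA 1 site in HMGB1P3: gCagGgatgtggaataaca
GAPDH forward primer site in GAPDH, GAPDHP1, GAPDHP61 and GAPDHP65: ggatattgttgccatcaatgacc
GAPDH reverse primer site in GAPDH and GAPDHP61: agccttctccatggtggtgaaga
GAPDH reverse primer site in GAPDHP1 and GAPDHP65: agccttctAcatggtggtgaaga
The forward primer mismatch of HMGB1P1 and HMGB1P10 is C17G, and HMGB1P3 adds C4T and C11T. The reverse primer mismatch is A19C in HMGB1P1 and C9A in GAPDHP1 and GAPDHP65.

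Replicate 1 stood apart from the other libraries. Its total count was 73082279, against 17056035 to 19745170 in replicates 2 to 4, and small RNA genes took 21.9% of its counts against 0.225% to 0.460%. Genes annotated as antisense took 0.0990% of its counts and 0.505% to 0.569% of the others. A count of 0 allows up to 3 counts, equal to 0.0410 counts per 1000000 in replicate 1 and 0.152 to 0.176 in replicates 2 to 4. Of the TPM total, 69.0% lay outside protein-coding genes in replicate 1 and 7.01% to 12.6% in the others. The members' values are therefore given for each replicate, and most summaries also without replicate 1. Intervals cover counting error only.

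HMGB1 (chr13:31032053-31191734 in hg19, minus strand) had 34850, 6029, 10829 and 7044 counts in replicates 1 to 4, or 148 ± 47.8 TPM (SD, n = 4). GAPDH (chr12:6643571-6647541 in hg19, plus strand) had 155029, 46345, 77995 and 49667 counts, or 2899 ± 1285 TPM. In TPM over all rows, replicate 1 was the lowest for both parents, at 82.7 for HMGB1 and 1044 for GAPDH. In TPM over protein-coding genes HMGB1 was at 267, 169, 224 and 176, so that replicate 1 was the highest, and GAPDH was at 3372, 3684, 4586 and 3523. Without replicate 1 the levels were 170 ± 23.9 TPM and 3518 ± 427 TPM (n = 3). Both parents were thus well above the detection limit in every library, and GAPDH exceeded HMGB1 in every one.

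Of the 27 HMGB1 pseudogenes, 4 had more than 3 counts in all 4 replicates, namely HMGB1P3, HMGB1P5, HMGB1P6 and HMGB1P10. Of the 43 GAPDH pseudogenes, GAPDHP1 and GAPDHP62, 2 in all, did so. Over all rows that rule was met by 34.7%, over all pseudogene rows by 5.52% and over numbered pseudogenes of a protein-coding gene by 6.49%, and both families lay nearer to the last 2 values than to the first. A further 5 HMGB1 members and 9 GAPDH members passed 3 counts in 1 to 3 replicates only, which made 9 of 27 and 11 of 43 above 3 counts in at least 1 replicate. By that looser rule the background was 53.2% of all rows, 25.9% of pseudogene rows and 26.7% of numbered pseudogenes. Another 4 and 9 members never exceeded 3 counts, and 14 HMGB1 and 23 GAPDH members were at 0 in every library. By library, 7, 7, 4 and 5 HMGB1 members and 5, 6, 3 and 7 GAPDH members passed 3 counts in replicates 1 to 4. Over all 44591 rows, 20871, 19109, 17782 and 18322 passed 3 counts in replicates 1 to 4. Replicate 3 was thus the lowest for both families and for all rows. Replicate 1 is the deepest library and replicate 2 the shallowest, so the members' numbers did not rank by depth. Without replicate 1, 4 and 2 members still passed 3 counts in each remaining library.

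**Figure D1:**
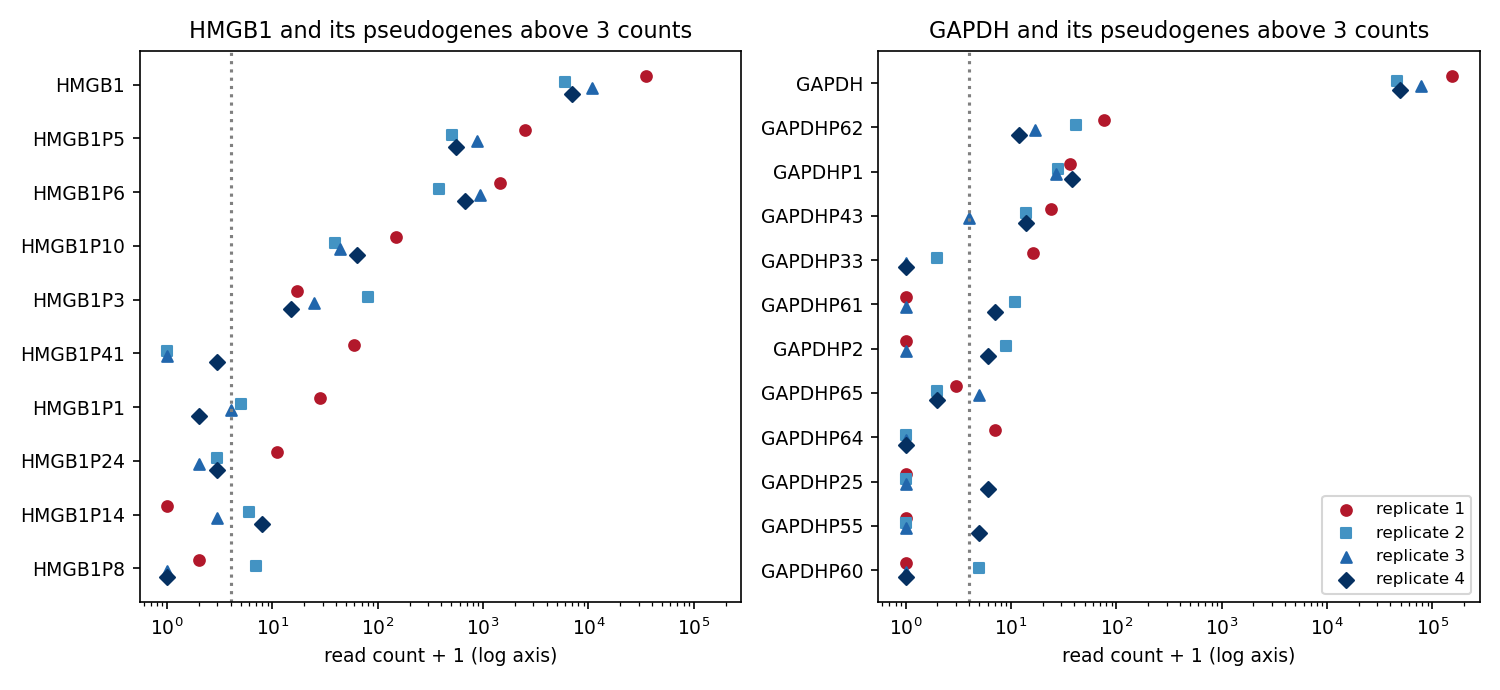
Read count plus 1 (log axis) of each parent gene and of the pseudogenes with more than 3 counts in at least 1 replicate, 1 marker per replicate, with the dotted line at 3 counts. HMGB1P5 and HMGB1P6 lie at 381 to 2483 counts below HMGB1 at 6029 to 34850, while the highest GAPDH pseudogene count is 75 below GAPDH at 46345 to 155029.

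Counts of the HMGB1 pseudogenes together were a sizeable fraction of those of the parent, and counts of the GAPDH pseudogenes were not. The 27 HMGB1 members summed to 4185, 1021, 1878 and 1313 counts. As a share of parent plus pseudogene counts this was 10.7% (95% exact binomial interval 10.4 to 11.0), 14.5% (13.7 to 15.3), 14.8% (14.2 to 15.4) and 15.7% (14.9 to 16.5). Replicate 1 was the lowest and its interval overlapped none of the others, while the intervals of replicates 2 to 4 overlapped each other. The mean share was 13.9% ± 2.20 (SD, n = 4), and 15.0% ± 0.641 without replicate 1 (n = 3). The parent thus had 5.36 to 8.33 reads for each pseudogene read.

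The 43 GAPDH members summed to 159, 111, 51 and 86 counts. Their share was 0.102% (0.0872 to 0.120), 0.239% (0.197 to 0.288), 0.0653% (0.0487 to 0.0859) and 0.173% (0.138 to 0.213). Replicate 3 was the lowest and replicate 2 the highest, and replicate 1 lay between them. The mean was 0.145% ± 0.0769 (SD, n = 4) and 0.159% ± 0.0876 without replicate 1. GAPDH itself had 418 to 1529 reads for each read of its pseudogenes.

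In every replicate the pseudogene to parent ratio was higher for HMGB1 than for GAPDH. The difference on the scale log2((count + 1)/(parent count + 1)) was 6.86, 6.13, 8.02 and 6.73. Without the added 1, the ratio for HMGB1 was 117-, 70.7-, 265- and 108-fold that for GAPDH. The mean difference was 6.94 ± 0.79 (SD, n = 4) and 6.96 ± 0.97 without replicate 1. Two-sided exact sign-flip permutation over 4 replicates gave p = 0.13, the smallest value that 4 replicates allow, so this design cannot pass 0.05 whatever the size of the difference. Leaving out members or changing the scale left the direction the same in each alternative run.

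Gene length changed the size of these shares. The deposited length of HMGB1 is 5367 bases and that of HMGB1P5 1195 bases, while GAPDH has 1892 bases and GAPDHP1 1029. Per kilobase, the HMGB1 pseudogene share was 32.4%, 39.2%, 38.2% and 39.8%, with a mean of 37.4% ± 3.42 and 39.1% ± 0.805 without replicate 1. Per kilobase, the GAPDH share was 0.161%, 0.378%, 0.109% and 0.289%. The difference between the families was larger on that scale, at 8.13 ± 0.73 in log2 (8.11 ± 0.89 without replicate 1).

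**Figure D2:**
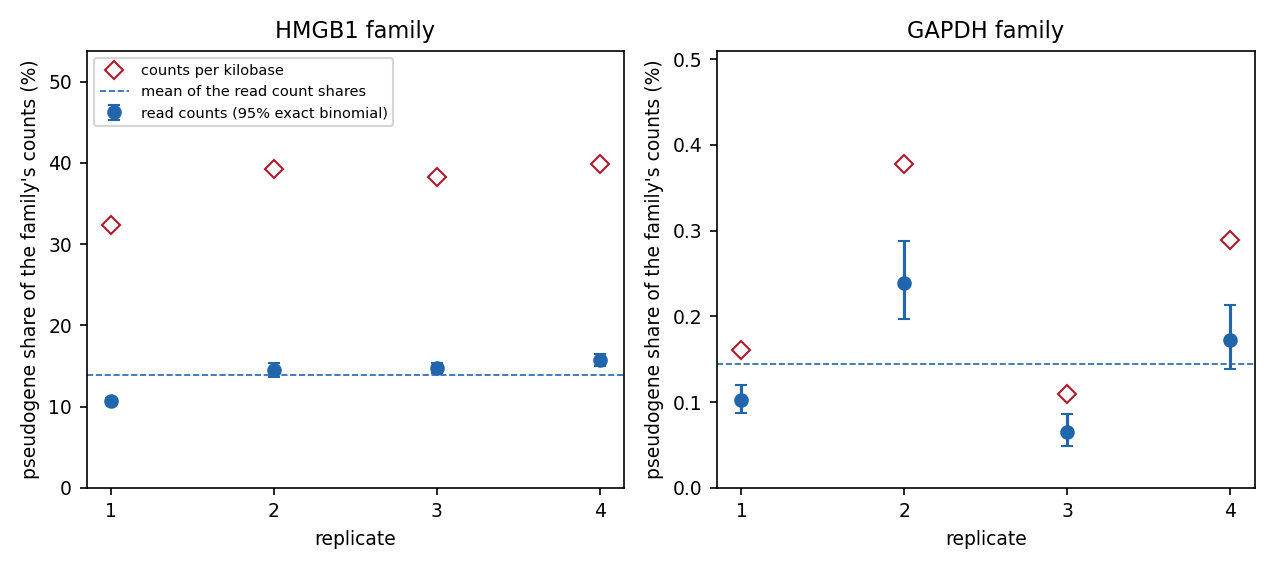
Pseudogene share of the family's counts (%) by replicate for HMGB1 (left) and GAPDH (right), with 95% exact binomial bars on read counts, open diamonds for counts per kilobase and a dashed line at the mean. The vertical axes differ: HMGB1 shares lie between 10.7% and 39.8%, GAPDH shares between 0.0653% and 0.378%.

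Nearly all HMGB1 pseudogene reads belonged to HMGB1P5 and HMGB1P6, which together took 93.7%, 86.8%, 96.1% and 93.1% of the family's pseudogene counts. HMGB1P5 (chr3:22423212-22424406 in hg19, plus strand) overlaps no other row of the tables. It had 2483, 505, 874 and 546 counts, which was 7.12%, 8.38%, 8.07% and 7.75% of the HMGB1 count in the same library. This proportion was the steadiest of the 6 detected members, with the highest replicate 1.18 times the lowest and a mean of 7.83% ± 0.535 (8.07% ± 0.312 without replicate 1). Per kilobase it was 32.0%, 37.6%, 36.2% and 34.8% of HMGB1.

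HMGB1P6 (chr15:71455811-71457851 in hg19, minus strand) had 1437, 381, 931 and 677 counts. These were 4.12%, 6.32%, 8.60% and 9.61% of the HMGB1 count, a mean of 7.16% ± 2.45 (8.18% ± 1.69 without replicate 1). Replicate 1 was again the lowest, and the highest replicate was 2.33 times the lowest. HMGB1P6 lies within THSD4 on the opposite strand, which had 4284, 1239, 686 and 2157 counts, and over an unnamed antisense gene on its own strand with 0, 5, 0 and 4 counts. Replicate 3 had the fewest THSD4 reads and more HMGB1P6 reads than replicates 2 and 4. The sources used here do not state whether strand was used in counting, so reads of THSD4 across this interval cannot be told apart from those of HMGB1P6.

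The order of the 2 leading members changed between libraries. The ratio of HMGB1P5 to HMGB1P6 counts was 1.73 (95% interval 1.62 to 1.85) in replicate 1 and 1.33 (1.16 to 1.52) in replicate 2. In replicate 3 it was 0.939 (0.855 to 1.03), an interval that includes 1, and in replicate 4 it was 0.806 (0.719 to 0.904). HMGB1P5 was therefore ahead in the first pair of libraries, HMGB1P6 in replicate 4, and replicate 3 did not separate them beyond counting error. The higher mean count of HMGB1P5 over the 4 libraries thus depends on the weight given to replicate 1. Per kilobase HMGB1P5 was ahead in all 4, by 2.95, 2.26, 1.60 and 1.38 times.

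HMGB1P10 (chr22:26956394-26957582 in hg19) had 149, 38, 43 and 62 counts, or 0.428%, 0.630%, 0.397% and 0.880% of HMGB1. Its interval lies within TPST2, which encodes a protein-tyrosine sulfotransferase, on the opposite strand. Replicate 4 was the highest and replicates 1 and 3 were close to each other. The mean was 0.584% ± 0.223, and 0.636% ± 0.242 without replicate 1. HMGB1P10 reads were 8.69% to 12.7% of the TPST2 count in the same library.

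HMGB1P3 (chr2:231379639-231380801 in hg19, plus strand) varied most, with 16, 80, 24 and 14 counts. Replicate 2 alone was high: the counts were 0.0459%, 1.33%, 0.222% and 0.199% of HMGB1, a 28.9-fold range. The mean was 0.448% ± 0.591, or 0.582% ± 0.645 without replicate 1 and 0.155% ± 0.0955 without replicate 2. HMGB1P3 lies in SP100 on the same strand, and SP100, an interferon-responsive gene of nuclear bodies, has a known splice form with an HMG-box exon. Of the 567 windows of 50 bases in the HMGB1P3 model, 495 also occur in SP100 transcripts and 6 in HMGB1 transcripts. SP100 was likewise highest in replicate 2, at 53.1 TPM over protein-coding genes against 15.1 to 26.5 in the other libraries, and HMGB1P3 reads were 0.421%, 2.96%, 1.32% and 1.62% of SP100 counts. The part of SP100 reads in the HMGB1P3 count was not tested.

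**Figure D3:**
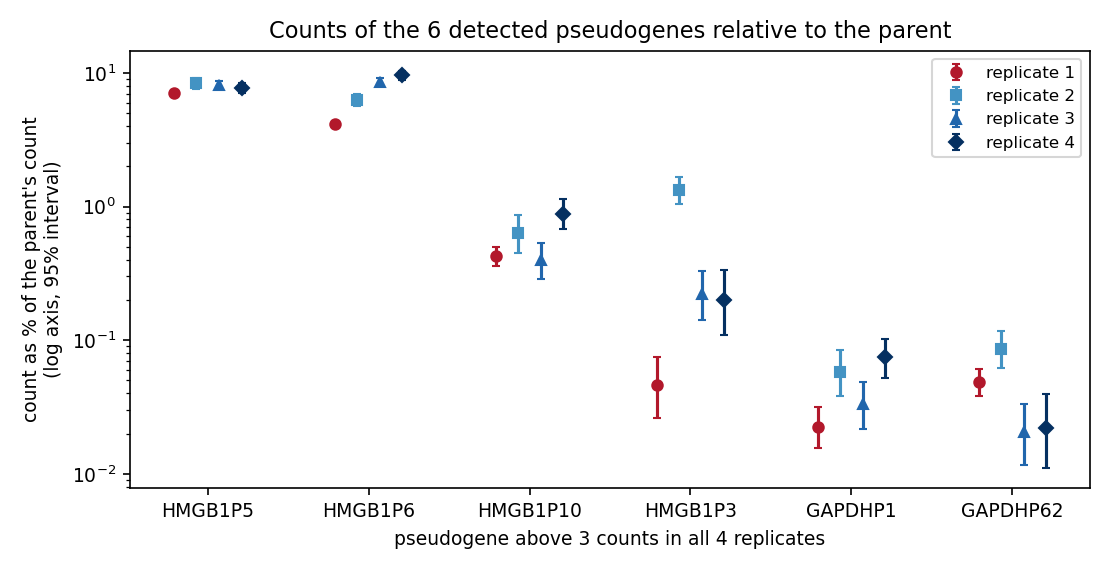
Count of each of the 6 pseudogenes with more than 3 counts in all replicates as a percent of its parent's count (log axis), 1 marker per replicate with its 95% exact interval. HMGB1P5 stays between 7.12% and 8.38%, HMGB1P3 is high in replicate 2, and both GAPDH members stay between 0.0205% and 0.0863%.

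Other HMGB1 members contributed few reads. Without HMGB1P5 and HMGB1P6 the share of the family fell to 0.755%, 2.19%, 0.670% and 1.26%, a setting chosen after the data were seen. HMGB1P1 had 27, 4, 3 and 1 counts, with replicate 1 the highest. HMGB1P24, within ACACA on the same strand, had 10, 2, 1 and 2 counts, and HMGB1P8 had 1, 6, 0 and 0. HMGB1P41 and HMGB1P14 are named after their values were seen. HMGB1P14 had 0, 5, 2 and 7 counts and HMGB1P41 had 58, 0, 0 and 2. HMGB1P41 lies in ZNF704 on the same strand, and ZNF704 was also highest in replicate 1, with 20030 counts against 492 to 1631.

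The GAPDH pseudogene reads were split among more members, none with 100 counts in any library. GAPDHP62 (chr8:101562768-101564018 in hg19, minus strand) had the highest mean count, with 75, 40, 16 and 11 counts, or 47.2%, 36.0%, 31.4% and 12.8% of the family's pseudogene counts. Relative to GAPDH, its counts were 0.0484%, 0.0863%, 0.0205% and 0.0221%, a mean of 0.0443% ± 0.0308 and 0.0430% ± 0.0375 without replicate 1. GAPDHP62 lies in ANKRD46 on the same strand, 799 of its 941 windows of 50 bases occur in ANKRD46 transcripts and none occurs in GAPDH-201. ANKRD46 had 932, 186, 220 and 120 counts, so that GAPDHP62 reads were 8.05%, 21.5%, 7.27% and 9.17% of the ANKRD46 count. Whether these reads are ANKRD46 transcripts was not tested.

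GAPDHP1 (chrX:39646185-39647213 in hg19, minus strand) overlaps no other row and had 35, 27, 26 and 37 counts. Relative to GAPDH this was 0.0226%, 0.0583%, 0.0333% and 0.0745%, a mean of 0.0472% ± 0.0236 and 0.0554% ± 0.0207 without replicate 1. The raw counts differed little between libraries although GAPDH counts and total counts differed several-fold. GAPDHP1 was ahead of GAPDHP62 in replicates 3 and 4 and behind it in replicates 1 and 2. By mean percent of GAPDH and by mean TPM (2.72 against 1.84) GAPDHP1 was ahead, so the order of this pair depends on the weight given to replicate 1. GAPDHP61 had 0, 10, 0 and 6 counts and GAPDHP65 had 2, 1, 4 and 1. GAPDHP43, named after its values were seen, had 23, 13, 3 and 13 counts within CASC4 on the same strand. The other GAPDH members with more than 3 counts in some library reached at most 15.

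Many members lie within other genes, and this bears on which reads can be assigned to them. Of the 27 HMGB1 members, 11 overlap another row and 6 of them on the same strand, and of the 43 GAPDH members 18 overlap, 7 on the same strand. Among members above 3 counts in at least 1 replicate, 7 of 9 HMGB1 members and 6 of 11 GAPDH members overlap another row. Leaving out every overlapping member, HMGB1P6 included, gave a share of 7.31% ± 0.450 for HMGB1 and 0.0609% ± 0.0271 for GAPDH, and the log2 difference between the families was 7.09 ± 0.61. Without replicate 1 these were 7.50% ± 0.284, 0.0685% ± 0.0275 and 6.94 ± 0.65.

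HMGB1P5, HMGB1P6 and HMGB1P10, which had the most reads of their family, were also the 3 members closest to HMGB1 in sequence. Transcript models were found for 27 of 27 HMGB1 and 41 of 43 GAPDH members, GAPDHP30 and GAPDHP43 having no entry. Identity to HMGB1-203 ranged from 80.1% to 98.6% with a median of 87.9%. It was 98.6% for HMGB1P5, 98.1% for HMGB1P6, 97.3% for HMGB1P10, 95.8% for HMGB1P1 and 91.8% for HMGB1P3. Identity of the GAPDH members to GAPDH-201 ranged from 79.0% to 95.9% with a median of 86.1%, and was highest for GAPDHP1. HMGB1P5 and HMGB1P6 thus stood at the top of their family in both identity and counts. Spearman's rho of identity with summed count was 0.67 across the 27 HMGB1 members and 0.27 across the 41 GAPDH members. These are descriptions across genes of the same libraries, and members share sequence with each other.

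**Figure D4:**
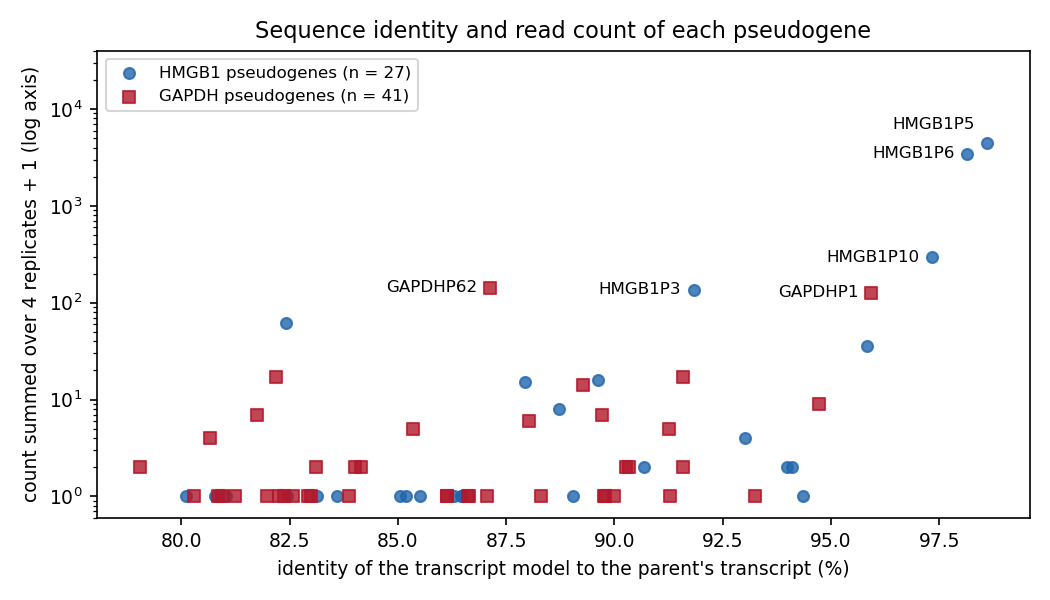
Identity of each pseudogene's transcript model to the parent transcript (%) against its count summed over 4 replicates plus 1 (log axis), circles for 27 HMGB1 and squares for 41 GAPDH members. HMGB1P5 and HMGB1P6 lie at the top right, and GAPDHP62 has reads in every library at an identity of 87.1%.

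Short stretches show how far a read could be placed. In HMGB1P5, 421 of 593 windows of 50 bases also occur in an HMGB1 transcript, and in HMGB1P6 316 of 597. HMGB1P10 had 137 of 514 such windows, HMGB1P1 160 of 587 and GAPDHP1 130 of 956, the last in GAPDH transcripts. Of windows of 100 bases, HMGB1P5 had 223 of 543 in a transcript of its parent and HMGB1P6 215 of 547. HMGB1P1 had 1 of 537 at that length, and HMGB1P10 and GAPDHP1 had none of 464 and 906. HMGB1P5 and HMGB1P6 also share 288 windows of 50 bases with each other. At least 1 window of 50 bases shared with the parent was present in 12 of the 27 HMGB1 models and 11 of the 41 GAPDH models. The models of HMGB1P5, HMGB1P6, HMGB1P10 and GAPDHP1 span 642, 646, 563 and 1005 bases, less than the deposited lengths of these genes. How reads that fit several places were counted is not given in the sources used here, so the part of parent reads among pseudogene counts, or the reverse, was not tested.

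The oligonucleotide sites printed above can be set beside these counts. The HMGB1 primer pair matched HMGB1P5 and HMGB1P6 exactly at both ends, with a product of 230 bases on HMGB1 and on both pseudogenes. In counts, these 2 members made up 10.1%, 12.8%, 14.3% and 14.8% of the total of HMGB1, HMGB1P5 and HMGB1P6. HMGB1P1 and HMGB1P10 had at most 2 mismatches in each primer. The reverse primer alone matched 8 members exactly, among them HMGB1P4, HMGB1P20, HMGB1P24, HMGB1P29 and HMGB1P37. HMGB1P20, HMGB1P29 and HMGB1P37 were at 0 in all libraries and HMGB1P4 had a single count in replicate 1.

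HMGB1 siRNA 1 matched 11 of the 27 HMGB1 members exactly. These were HMGB1P1, HMGB1P5, HMGB1P6, HMGB1P8, HMGB1P10, HMGB1P24, HMGB1P26, HMGB1P28, HMGB1P33, HMGB1P40 and HMGB1P48, and they held 98.1%, 91.7%, 98.6% and 98.2% of the family's pseudogene counts. Of the 4 members detected in every library, only HMGB1P3 lacked an exact site, with the mismatches G2C and A5G. HMGB1 siRNA 2 had no exact match in any member's transcript model, and the model of HMGB1P24 matched with 2 mismatches. The siRNA 2 site in HMGB1-203 begins after the coding sequence, and the alignment of 2 of the 27 member models extends beyond the coding sequence. Most models therefore do not reach this site, and bases of the members outside their models were not searched. Whether the full members hold the site was not tested.

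The GAPDH primer pair matched GAPDHP61 exactly at both ends, with a product of 242 bases against 241 for GAPDH. GAPDHP61 made up 0.0216% and 0.0121% of the total of GAPDH and GAPDHP61 in replicates 2 and 4, and had 0 counts in replicates 1 and 3. The forward primer matched GAPDHP1, GAPDHP37, GAPDHP61, GAPDHP65 and GAPDHP73, and the reverse primer GAPDHP35, GAPDHP58, GAPDHP61, GAPDHP68 and GAPDHP71. Of these, GAPDHP35, GAPDHP37, GAPDHP58, GAPDHP68, GAPDHP71 and GAPDHP73 were at 0 in all libraries. With up to 2 mismatches in each primer, 14 GAPDH members qualified. The forward-primer members were 0.0239%, 0.0819%, 0.0384% and 0.0885% of the total of GAPDH and themselves.

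The HMGB1 share was near the top among families of the same kind and the GAPDH share below their middle. The tables hold 169 families with at least 5 numbered pseudogenes of a protein-coding gene, and in 163 of them the parent had more than 3 counts in every library. Their median mean share was 0.347%. HMGB1 ranked 3 and GAPDH 119, with 2 families above HMGB1 and 118 above GAPDH, and without replicate 1 there were 3 and 108. In single libraries the number of families above HMGB1 was 8, 3, 2 and 1. As single genes, HMGB1P5 and HMGB1P6 ranked 7 and 8 by mean counts per 1000000 among 3929 numbered pseudogenes, against 82 for HMGB1P10, 141 for GAPDHP1 and 152 for GAPDHP62.

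Families chosen by name gave a scale for both. HMGN2 and HMGN1, nucleosome-binding proteins of another high-mobility group, had shares of 12.6% ± 4.57 (44 rows) and 9.42% ± 1.44 (22 rows), and both exceeded HMGB1 in replicate 1, at 19.4% and 11.0%. Without replicate 1 they were at 10.3% ± 0.301 and 8.89% ± 1.19. HMGB3 had 1.06% and HMGA1 0.347%. Among genes of glycolysis, PGAM1 had 0.507%, LDHA 0.469% and PKM 0.00829%, and among common reference genes ACTB had 0.0529% and PPIA 0.810%. ACTB was highest in replicate 1, at 0.125%, and its mean without that library was 0.0289%. The other shares of single families named here moved by less than 1.5 times without replicate 1. GAPDH at 0.145% lay within the range of these last groups, and the mean of HMGB1 lay above that of each family named.

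**Figure D5:**
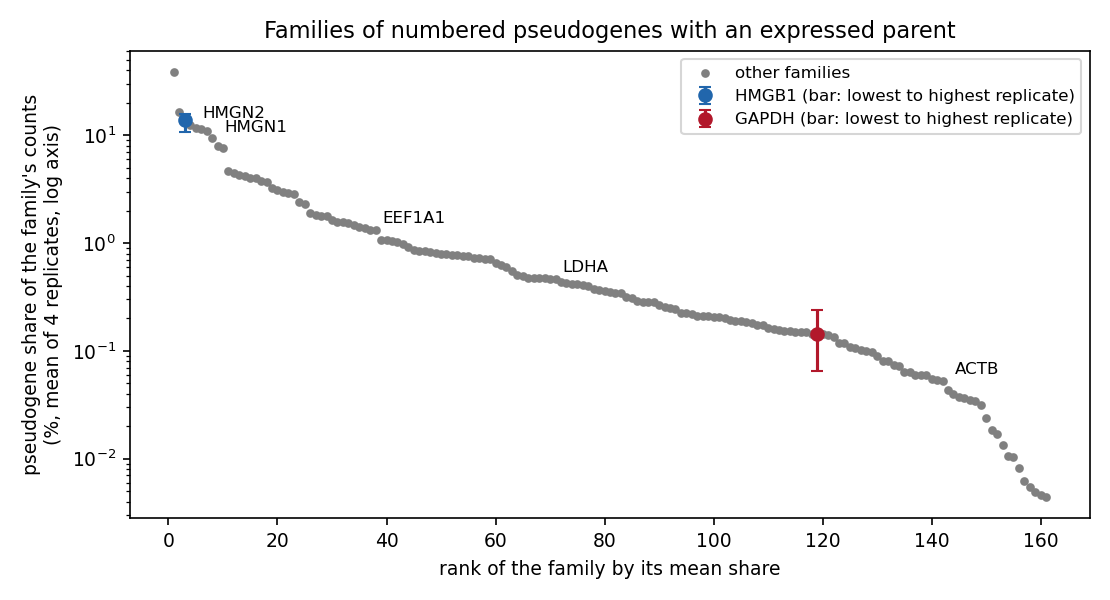
Mean pseudogene share of the family's counts (%, log axis) against the family's rank, for the families of numbered pseudogenes whose parent had more than 3 counts in all replicates and whose share was above 0. HMGB1 (blue) ranks 3 with a range of 10.7% to 15.7% and GAPDH (red) ranks 119 with 0.0653% to 0.239%.

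Coding relatives of both parents were measured in the same libraries. HMGB2, a close coding relative of HMGB1, was at 164 ± 67.1 TPM (195 ± 32.5 without replicate 1), while HMGB3 was at 26.8 ± 7.73 TPM (30.5 ± 2.78) and the germ-cell gene HMGB4 was listed at 0 in all libraries. HMGB1P5 was at 26.5, 56.3, 71.2 and 57.0 TPM and HMGB1P6 at 8.97, 24.9, 44.4 and 41.4 TPM. In TPM, HMGB1P5 thus exceeded the coding gene HMGB3 in every replicate. In read counts the order was the opposite, with 4821, 822, 1205 and 1050 for HMGB3, whose deposited length is 3915 bases against 1195. GAPDHS, the sperm-specific paralog of GAPDH, had 0, 49, 17 and 30 counts, against 35, 27, 26 and 37 for GAPDHP1.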

How the data were processed

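RNA-seq of 4 libraries of untreated HaCaT cells was analysed, with the replicate taken from the sample titles. The authors deposited raw read counts per gene for each library, RPKM for replicates 1 and 2 and TPM for replicates 3 and 4. Recomputing the deposited RPKM and TPM from these counts and the listed gene length gave the same values, with a largest relative difference of 6.66e-07. TPM was computed from the counts for all 4 libraries. The submitters' processing notes name hg19, HISAT2, TopHat2, Bowtie2 and HISAT without roles. The counting program, annotation, strand setting and treatment of multiply placed reads are not given in the sources used here. Total counts were 17056035 to 73082279.

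All 70 rows named HMGB1P or GAPDHP plus a number were used. A member was called detected above 3 counts in all 4 replicates. The share was pseudogene counts over parent plus pseudogene counts, with 95% exact (Clopper-Pearson) intervals. The families were compared by a two-sided exact sign-flip permutation test of log2 ratios with a pseudocount of 1, the calculation being tested on simulated data. Transcript models were from GENCODE release 29 (GRCh38), oligonucleotides from the study's supplementary tables, and no coordinates were carried between builds. Models were aligned locally and cut into windows of 50 and of 100 bases, which were searched in all transcripts of the parent. Named were the 10 members of highest mean TPM per family among those detected, the 3 with the widest range relative to the parent, and members with an exact oligonucleotide match. Members and lists were chosen with earlier results of these data known. Python 3.11.15, pandas 2.3.3, SciPy 1.17.1 and Biopython 1.88 were used. Alternatives were counts per kilobase, member subsets, other detection limits, other scalings and leaving out each replicate. The knockdown, irradiation, animal and proteomics experiments were not analysed here. Some single items are not reported here.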

Additional observations from a re-analysis of the deposited data

Results flagged for a closer look

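In 28 sets of 4 replicate values, 7 had a highest value far from the other 3 relative to the range of the set. Chance alone flags about 1 in 20 sets of unselected, normally distributed values, or 1.4 of 28. Most of the sets here were members chosen for passing 3 counts in at least 1 of the same libraries. That rate is therefore no benchmark for the 7. HMGB1P3 was at 1.33% of the HMGB1 count in replicate 2, with a gap of 0.863 of the range, and SP100, the gene it lies in, was also highest there. HMGB1P41 was at 0.166% of HMGB1 in replicate 1, where ZNF704, the gene it lies in, was highest, and HMGB1P8 was at 0.0995% in replicate 2. The remaining 4 were GAPDH members with reads in a single library and 0 in the others: GAPDHP25 at 0.0101% and GAPDHP55 at 0.00805% of GAPDH in replicate 4, GAPDHP60 at 0.00863% in replicate 2 and GAPDHP64 at 0.00387% in replicate 1. Any member with counts in 1 library only meets this rule whatever its count, and these counts were 4 to 6.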

How the results depend on the processing

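Of 100 alternative values, 82 stayed within 1 SD (for counts of members, within 1.5 times) or kept the direction of the difference, 18 moved and none reversed. The difference between the families was above 0 in all 11 alternatives, from 3.09 without HMGB1P5 and HMGB1P6 (added after seeing the data) to 8.13 per kilobase; leaving out each replicate gave 6.58 to 7.21, with 0.25 as the smallest p that 3 replicates allow. The HMGB1 share moved to 37.4% per kilobase, 7.31% and 7.87% without members overlapping another gene on either or on the same strand, 7.71% without HMGB1P5, and 1.22% without HMGB1P5 and HMGB1P6, and was 13.3% to 15.0% with each replicate left out. The GAPDH share moved to 0.234% per kilobase and 0.0609% without members overlapping on either strand. It was 0.0820% without members overlapping on the same strand and 0.0914% with only the detected members, both within 1 SD but over 1.5 times below 0.145%, and was 0.114% to 0.171% with each replicate left out. Requiring more than 3 counts in at least 1 replicate raised the detected members to 9 and 11, and more than 0 counts in all replicates gave 4 GAPDH members. HMGB1P5 took 59.1% of the HMGB1 pseudogene counts per kilobase against 49.2%. HMGB1 was at 209 TPM over protein-coding genes and 437 counts per 1000000. For single members, 5 of 30 values moved, each on the scale per kilobase. HMGB1P3 was at 0.155% of HMGB1 without replicate 2 against 0.448%. No paired analysis between groups was possible because all libraries belong to 1 group, so no groups share replicate numbers. The comparison of the families was paired within each library. Members with few reads are limited by depth, and reads shared with a parent or host gene cannot be separated in gene counts.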
